A study of Mus musculus with 12 samples.

Results

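The BCL2 family decides whether a cell keeps or opens its outer mitochondrial membrane. The anti-apoptotic proteins (BCL2, BCL-XL, A1 and MCL1) hold the membrane closed. BH3-only proteins such as BIM, PUMA and NOXA bind and neutralise those guards, and the effectors BAX and BAK then form the pores that release cytochrome c. Natural killer (NK) cells, lymphocytes that kill infected or transformed cells and secrete interferon gamma, depend on IL-15 for survival, and MCL1 and restraint of BIM are known parts of that dependence.

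The set holds 10 genes, chosen by name: the 5 anti-apoptotic genes Bcl2, Bcl2l1, Bcl2a1b, Bcl2a1d and Mcl1, and the 5 pro-apoptotic genes Bcl2l11, Bbc3, Pmaip1, Bax and Bak1. All 10 were found among the 55487 features of the deposited expression table. Of these, 9 passed the filter on low values (a log2 CPM above 0 in at least 4 libraries), 5 of 5 anti-apoptotic and 4 of 5 pro-apoptotic genes. Pmaip1 did not pass it and was not part of the genome-wide test.

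RNA was sequenced from mouse NK cells of the strain B6.129S4-Ifngtm3.1Lky/J, labelled mut/mut, whose interferon gamma locus carries a reporter that marks producing cells with yellow fluorescent protein (YFP). All 12 libraries, controls included, carry the label HD IL-15 and come from these reporter mice, so no group shows the family without IL-15 or without the reporter. The 3 groups of 4 libraries are unstimulated cells, and cells that received anti-NK1.1, an antibody to an activating receptor, for 6 h and were separated into YFP- and YFP+ cells. Each group has one library with each of the labels f2, m2, m3 and m4, and values below are given in that order. Mouse age, the IL-15 dose and schedule and the organ of origin are not given in the sources used here. The labels give no time for the unstimulated cells. In comparisons with them, time in culture and the separation by YFP cannot be told apart from the antibody. Nothing says that libraries of a group came from separate animals, so p-values measure the spread between these libraries, which may be technical.

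Library totals ran from 32.1 to 54.2 M reads (M for mega), so 3 reads, the smallest level counted as detected, corresponded to 0.0553 to 0.0933 CPM (reads on a gene per mega reads of the library). The reporter's own gene, Ifng, followed the sort at a mean of 3.92 CPM in unstimulated, 45.8 CPM in YFP- and 329 CPM in YFP+ libraries. All 14 NK cell markers were above the 3-read floor in every library, and Ncr1, which encodes NKp46, averaged 247, 222 and 123 CPM in that order. Klrb1c, which encodes NK1.1, averaged 308, 75.3 and 6.50 CPM, and Gzmb, the granzyme B gene, 6165, 12850 and 24090 CPM. Of the 14 NK cell markers, 3 rose and 7 fell in YFP- and 3 rose and 8 fell in YFP+ against unstimulated cells, and 2 were higher and 6 lower in YFP+ than in YFP- cells. Cd3e and Lyz2, markers of T cells and macrophages, stayed at or below 1.49 and 0.803 CPM. Other lineage markers moved with the groups. Summed T cell markers, mostly Cd3d, Cd3g, Trac, Trbc2 and Cd28, were at 270 to 344 CPM without stimulation, 406 to 535 CPM in YFP- and 531 to 608 CPM in YFP+ libraries. Within that sum Trac, Trbc2 and Cd28 rose in both fractions (Trac from a mean of 7.43 to 34.3 and 48.4 CPM), while Cd3d and Cd3g fell in YFP+ against unstimulated cells (Cd3g from 47.9 to 20.7 CPM). Summed myeloid and dendritic markers, mostly Itgax, Cst3, H2-Ab1 and Cd74, were at 288 to 328, 222 to 255 and 151 to 183 CPM, with S100a9 at 0 throughout. Reads on rRNA-like features took 30.7 ± 3.38% (SD, n = 4), 21.2 ± 6.27% and 20.7 ± 7.22% of the libraries, and mitochondrial genes 0.800 ± 0.164%, 0.790 ± 0.109% and 0.365 ± 0.0427%. The library m3 had the largest rRNA-like share of both stimulated groups, 30.28% in YFP- and 29.75% in YFP+. In both groups m3 also had the lowest Bcl2 and Bcl2l1. The part of these shifts in the results below was not tested, and in bulk RNA fewer cells of a type and less RNA per cell cannot be told apart.

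After stimulation, 3 of the 5 anti-apoptotic genes rose in both reporter fractions: Bcl2a1d by 3.69 and 4.02 on the log2 scale in YFP- and YFP+ cells, Bcl2a1b by 3.23 and 3.42, and Bcl2l1 by 2.73 and 2.0. Mcl1 did not pass the test in any comparison. The pro-apoptotic gene Bcl2l11 also rose, by 1.92 in YFP- cells and 0.87 in YFP+ cells, while the effector gene Bak1 fell by 0.84 and 1.1. Between the 2 stimulated fractions the called differences were lower Bcl2 and lower Bcl2l11 in YFP+ cells, and the Bcl2 call depended on the scaling.

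In YFP- against unstimulated libraries, 6 of the 9 tested genes passed a Benjamini-Hochberg adjusted p of 0.05 in limma, beside 51.1% of all 12364 genes tested. In YFP+ against unstimulated libraries 7 of 9 passed, beside 60.8% of all genes. In YFP+ against YFP- libraries 2 of 9 passed, beside 21.8% of all genes. Each share of the family lies near its background, and the counts alone do not set these genes apart. Of the anti-apoptotic genes, 3 rose and 0 fell in YFP- cells, 3 rose and 1 fell in YFP+ cells, and 0 rose and 1 fell between the fractions. Of the 4 tested pro-apoptotic genes, 2 rose and 1 fell, then 1 rose and 2 fell, then 0 rose and 1 fell. Both comparisons with unstimulated cells use the same 4 control libraries. Bcl2a1b and Bcl2a1d are near-identical copies whose reads are hard to split, yet each counts as a separate gene in these counts and medians. The median log2 difference of the anti-apoptotic genes was 2.73 in YFP-, 2.0 in YFP+ and -0.10 between the fractions, beside 0.25, -0.09 and -0.37 for the tested pro-apoptotic genes and 0.14, -0.03 and -0.19 for all genes tested. The last of these medians means that values of YFP+ against YFP- sit on a downward shift of 0.19 over all genes. Of all genes called in that comparison 405 were higher and 2286 lower in YFP+ cells as deposited, 1016 and 1675 with trimmed-mean scaling, 1163 and 1430 with quantile normalization and 1505 and 1491 with centring. In YFP- against unstimulated libraries the split was 3735 higher and 2586 lower, and 3072 and 3444 with totals without rRNA-like features. Among the anti-apoptotic genes, YFP+ against YFP- gave 0 higher and 1 lower (Bcl2) as deposited, 1 higher (Bcl2a1d) and 0 lower with trimmed-mean scaling or centring, and 2 higher (Bcl2a1b and Bcl2a1d) and 1 lower (Bcl2) with voom weights. The pro-apoptotic count of 0 higher and 1 lower, Bcl2l11, was the same under those scalings.

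**Figure D1:**
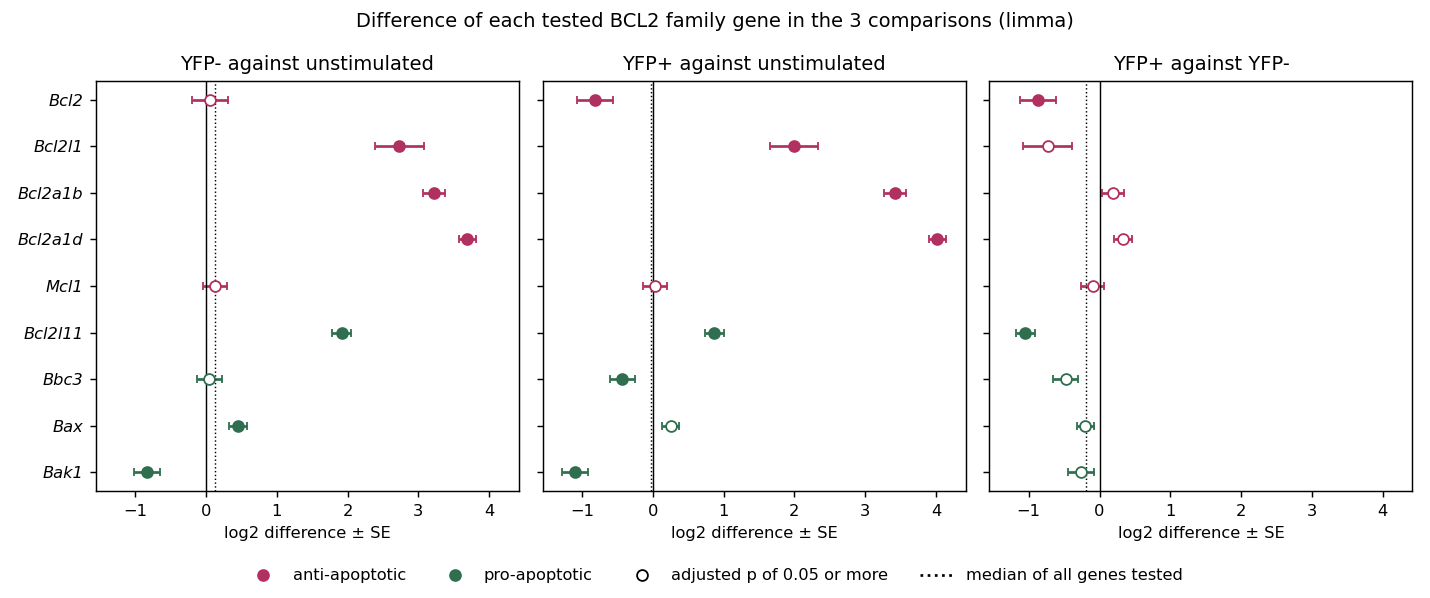
Log2 difference (x axis, ± SE from limma) of the 9 tested genes in the 3 comparisons; filled points have an adjusted p under 0.05 and the dotted line is the median of all genes tested. Bcl2a1d, Bcl2a1b and Bcl2l1 lie at 2.0 or above in both comparisons with unstimulated cells, and the only filled points of YFP+ against YFP- are Bcl2 and Bcl2l11, both below 0.

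Bcl2a1b and Bcl2a1d encode A1, an anti-apoptotic protein known as a target of NF-kappaB in activated leukocytes. They are near-identical copies on chromosome 9: Bcl2a1b lies at chr9:89199209-89207827 on the plus strand and Bcl2a1d at chr9:88723285-88731914 on the minus strand (GRCm38, GENCODE M21). Their coding sequences differ at 6 of 519 aligned bases (98.84% identity) and share an unbroken run of 217 bases, so many read pairs cannot be placed with certainty. The first 120 coding bases, taken from the GENCODE M21 transcripts, are shown because they hold 3 of those differences, in capitals, and otherwise match at every base:
Bcl2a1b: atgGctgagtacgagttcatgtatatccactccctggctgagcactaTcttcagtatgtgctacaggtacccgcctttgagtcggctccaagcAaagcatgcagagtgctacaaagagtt
Bcl2a1d: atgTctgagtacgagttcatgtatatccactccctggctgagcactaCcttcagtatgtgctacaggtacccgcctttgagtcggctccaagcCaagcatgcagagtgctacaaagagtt

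How the counting treated reads that fit both copies is not given in the sources used here, and the split between the copies is uncertain. A further annotated gene, Gm29094, shares 401 bp (49.1%) of the Bcl2a1b exons on the same strand and had 0 reads in every library. Whether reads in these shared exons were counted or dropped is not given either. The level of Bcl2a1b, its share and its CPM per kb may therefore be too low, and a sum of the copies would not restore dropped reads.

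Bcl2a1d stood at 4.31, 4.01, 4.32 and 4.19 log2 CPM in unstimulated libraries, at 7.87, 7.72, 7.78 and 8.23 in YFP- libraries, and at 8.21, 8.17, 8.29 and 8.24 in YFP+ libraries. All 8 stimulated libraries lay far above all 4 unstimulated ones, and the 2 stimulated groups overlapped only through the YFP- library m4. The log2 difference was 3.69 ± 0.13 (SE; 12.9-fold, limma adjusted p = 2.67e-10) for YFP- and 4.02 ± 0.13 (16.2-fold, adjusted p = 8.67e-11) for YFP+ against unstimulated cells. Between the fractions it was 0.33 (limma adjusted p = 0.0813). That last value passed the test with trimmed-mean scaling (0.48, limma adjusted p = 0.0191), with centring on the median (0.59, adjusted p = 0.0135), with voom weights (0.48, adjusted p = 0.0125) and without the YFP- library m4 (0.44, adjusted p = 0.0187).

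Bcl2a1b was lower throughout, at 1.56, 1.96, 1.94 and 1.48 log2 CPM in unstimulated, 4.89, 4.94, 4.81 and 5.19 in YFP- and 4.90, 5.25, 5.30 and 5.14 in YFP+ libraries. The stimulated libraries again formed a band of their own, within which YFP- and YFP+ overlapped. Its log2 difference was 3.23 ± 0.15 (SE; 9.35-fold, limma adjusted p = 7.9e-09) in YFP- and 3.42 ± 0.15 (10.7-fold, adjusted p = 1.59e-09) in YFP+ against unstimulated cells, and 0.19 between the fractions (adjusted p = 0.416), a value that passed the test only with voom weights (0.34, adjusted p = 0.0488).

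Because the copies share reads, the reads of Bcl2a1a, Bcl2a1b, Bcl2a1c, Bcl2a1d and Gm29094 were also summed per library, an alternative chosen after seeing the data. The sum rose by 3.65 in YFP- and 3.96 in YFP+ cells on the log2 scale, each with p = 0.0286 in a 2-sided exact permutation test, the smallest value that 4 against 4 libraries allow. The sum of YFP+ exceeded that of YFP- by 0.31 (exact permutation p = 0.0857). Bcl2a1d held 76.4 to 85.6% of the summed reads and Bcl2a1b 8.65 to 18.4%. The third expressed copy, Bcl2a1a, rose from a mean of 1.0 CPM to 16.7 CPM in YFP- and 20.0 CPM in YFP+ libraries, a log2 difference of 4.07 and 4.34 (limma adjusted p = 7.9e-09 and 1.47e-09).

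**Figure D2:**
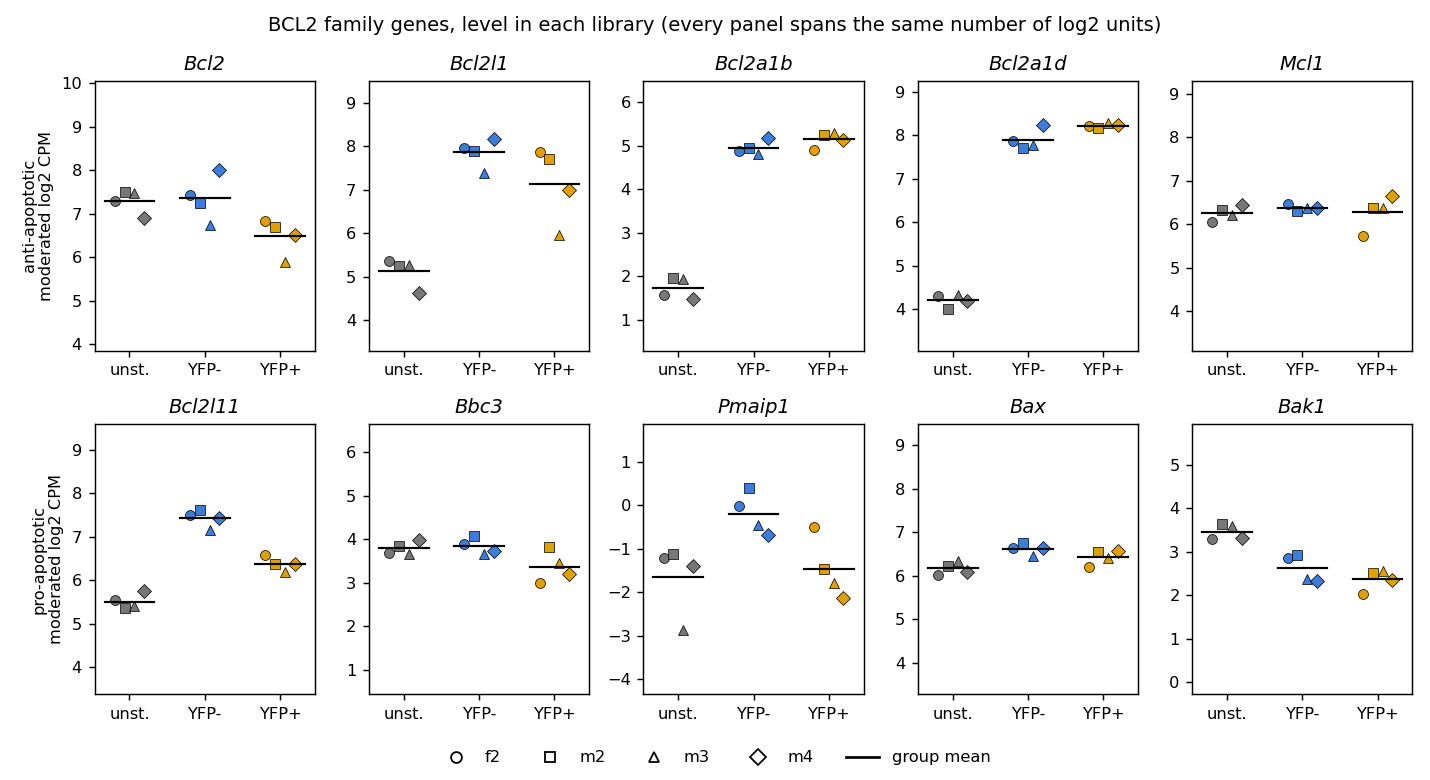
Moderated log2 CPM (y axis) of the 10 genes in each of the 12 libraries, anti-apoptotic genes above and pro-apoptotic genes below, with a marker per label (f2, m2, m3, m4) and a bar at the group mean. Bcl2l11 forms 3 separate bands with YFP- highest, while Mcl1 stays between 5.73 and 6.65 in all libraries.

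Bcl2l1 encodes BCL-XL (chr2:152780668-152831728, minus strand). Gene-level reads do not separate its long anti-apoptotic transcript from the short pro-apoptotic splice form. Unstimulated libraries had 5.38, 5.26, 5.28 and 4.63 log2 CPM, YFP- libraries 7.98, 7.91, 7.40 and 8.18, and YFP+ libraries 7.86, 7.70, 5.96 and 7.0. Every stimulated library exceeded every unstimulated one, and the YFP+ libraries were the most spread, with m3 lowest. The rise was 2.73 ± 0.34 (SE; 6.64-fold, limma adjusted p = 2.5e-05) in YFP- and 2.0 ± 0.34 (3.99-fold, adjusted p = 0.000182) in YFP+ cells. The fractions differed by -0.73 (limma adjusted p = 0.146), by -0.47 with centring (adjusted p = 0.248), and by -0.98 (adjusted p = 0.0457) once the YFP+ library f2 was left out. The YFP+ libraries f2 and m2 lay within the range of YFP- libraries. The lower YFP+ mean thus rested on m3 and m4, most of all on m3 at 5.96.

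Bcl2, the founding survival gene of the family (chr1:106538178-106714274, minus strand), did not rise. It stood at 7.29, 7.5, 7.48 and 6.90 log2 CPM in unstimulated, 7.44, 7.24, 6.74 and 8.00 in YFP- and 6.84, 6.70, 5.90 and 6.50 in YFP+ libraries. All YFP+ libraries lay below all unstimulated ones, whereas YFP- libraries ranged widely, and their lowest, m3, fell below the highest YFP+ library. Bcl2 fell by 0.81 ± 0.26 (SE; 1.75-fold, limma adjusted p = 0.0138) in YFP+ against unstimulated cells, with an adjusted p of 0.0543 when the label m2 was left out of all groups. In YFP- against unstimulated cells the difference was 0.06 (limma adjusted p = 0.861), and -0.08 with centring and -0.19 with quantile normalization.

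Against YFP- libraries, Bcl2 fell by 0.87 ± 0.26 (SE; limma adjusted p = 0.0268), beside a median of -0.19 over all genes. The call held with quantile normalization (-0.79, limma adjusted p = 0.0118) and with totals without rRNA-like features (-0.88, adjusted p = 0.00671). It also held with the replicate block (adjusted p = 0.0201) and voom weights (-0.71, adjusted p = 0.0492). The difference kept its sign but not its call with trimmed-mean scaling (-0.72, limma adjusted p = 0.051), with centring (-0.61, adjusted p = 0.0539) and with a fit of the 8 libraries compared (adjusted p = 0.0587). It also lost the call without the label f2, m2 or m4 (adjusted p = 0.0661, 0.074 and 0.127) and without the YFP- library f2 or m4 (adjusted p = 0.0707 and 0.0773). The same held without the YFP+ library m3 or m4 (adjusted p = 0.0645 and 0.0568). An antisense gene, D630008O14Rik, covers 558 bp (6.09%) of the Bcl2 exons, and the library kit does not mark strand, so its reads cannot be told apart there.

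Mcl1, whose short-lived protein NK cells need to survive (chr3:95658788-95663176, plus strand), had 6.06, 6.32, 6.21 and 6.43 log2 CPM in unstimulated, 6.46, 6.31, 6.38 and 6.37 in YFP- and 5.73, 6.36, 6.38 and 6.65 in YFP+ libraries. The 3 groups overlapped, with the lowest and the highest value both among YFP+ libraries. Its differences were 0.13 ± 0.17 (SE; limma adjusted p = 0.547), 0.03 (adjusted p = 0.899) and -0.10 (adjusted p = 0.71). The sign of the last turned with trimmed-mean scaling (0.05) and centring (0.16), and the first was -0.12 with quantile normalization, none of them past the test.

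Bcl2l11 encodes BIM, the BH3-only protein whose restraint by cytokines keeps lymphocytes alive (chr2:128126038-128162547, plus strand). It had 5.54, 5.36, 5.40 and 5.75 log2 CPM in unstimulated libraries, 7.51, 7.62, 7.16 and 7.44 in YFP- and 6.58, 6.39, 6.20 and 6.38 in YFP+ libraries. No 2 of the 3 groups overlapped: unstimulated libraries were lowest, YFP+ libraries between, and YFP- libraries highest. The log2 level rose by 1.92 ± 0.13 (SE; 3.78-fold, limma adjusted p = 1.91e-07) in YFP- and by 0.87 ± 0.13 (1.83-fold, adjusted p = 7.36e-05) in YFP+ cells. It was lower in YFP+ than in YFP- cells by 1.05 ± 0.13 (2.07-fold, limma adjusted p = 0.000135). That last call held under every alternative run, with -0.78 under centring and -0.89 with trimmed-mean scaling, and without any single library.

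Markers of innate lymphoid cells and ILC1 moved with the same contrast. Summed over 9 genes (among them Rora, Gata3, Cxcr6 and Itga1) they stood at 166 to 188 CPM without stimulation, 200 to 291 CPM among YFP- and 55.4 to 130 CPM in YFP+ libraries, and 8 of 8 tested genes of that list were lower in YFP+ than in YFP- cells, beside 18.5% of all genes called lower. The part of this, and of the lower mitochondrial share of YFP+ libraries, in the lower Bcl2 and Bcl2l11 was not tested.

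Bbc3 encodes PUMA, a BH3-only protein best known as a p53 target (chr7:16308393-16318205, plus strand). It had 3.67, 3.84, 3.67 and 3.99 log2 CPM in unstimulated, 3.89, 4.08, 3.66 and 3.73 in YFP- and 3.0, 3.81, 3.44 and 3.2 in YFP+ libraries. YFP+ libraries were mostly lower, but m2 lay within the range of both other groups. The difference was 0.05 (limma adjusted p = 0.838, and -0.09 with centring) in YFP- and -0.43 ± 0.18 (SE; adjusted p = 0.048) in YFP+ against unstimulated cells. That call was lost under most alternatives, among them trimmed-mean scaling (-0.30, limma adjusted p = 0.112), quantile normalization (-0.29, adjusted p = 0.124) and no filter (adjusted p = 0.105). Between the fractions the difference was -0.48 (adjusted p = 0.0696), and -0.63 (adjusted p = 0.017) without the YFP+ library m2.

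Pmaip1, which encodes the MCL1 and A1 antagonist NOXA, was scarce, with 5 to 17 reads in unstimulated libraries, 30 to 64 among the YFP- and 7 to 34 among the YFP+ ones. On the log2 CPM scale these were -1.21, -1.12, -2.86 and -1.39, then -0.02, 0.39, -0.46 and -0.68, then -0.50, -1.46, -1.79 and -2.12. YFP- libraries lay above all unstimulated ones, and YFP+ libraries overlapped both groups. The mean difference was 1.45 in YFP- against unstimulated libraries (2-sided exact permutation p = 0.0286, the smallest possible, not adjusted), 0.18 in YFP+ (exact permutation p = 0.8) and -1.27 between the fractions (exact permutation p = 0.0571). In limma without the filter, the first of these had an adjusted p of 0.0561.

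Of the 2 effector genes, Bax (chr7:45461697-45466898, minus strand) had 6.02, 6.23, 6.35 and 6.09 log2 CPM in unstimulated, 6.65, 6.75, 6.46 and 6.65 in YFP- and 6.19, 6.55, 6.41 and 6.56 in YFP+ libraries. YFP- libraries were all above the unstimulated ones, by a narrow margin, and YFP+ libraries overlapped both. The difference was 0.45 ± 0.12 (SE; limma adjusted p = 0.00689) in YFP- and 0.26 (adjusted p = 0.0854) in YFP+ against unstimulated cells. Both depended on the scaling: the first was lost with quantile normalization (0.22, limma adjusted p = 0.141), with library totals without rRNA-like features (0.27, adjusted p = 0.0747) and without the label m4 (adjusted p = 0.055). The second passed with trimmed-mean scaling (0.39, limma adjusted p = 0.0027), centring (0.38, adjusted p = 0.0116), voom weights (0.38, adjusted p = 0.00272) and without the YFP+ library f2 (0.33, adjusted p = 0.0294). Between the fractions the value was -0.20 (adjusted p = 0.267), and 0.06 under centring. Bax shares 192 bp (12.2%) of its exons with Gm45808 on the same strand.

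Bak1 (chr17:27019810-27029009, minus strand) went the other way. It had 3.28, 3.64, 3.59 and 3.32 log2 CPM in unstimulated, 2.86, 2.92, 2.37 and 2.34 in YFP- and 2.02, 2.50, 2.57 and 2.35 in YFP+ libraries. All stimulated libraries lay below all unstimulated ones, and the stimulated groups overlapped. It fell by 0.84 ± 0.19 (SE; limma adjusted p = 0.00207) in YFP- and by 1.1 ± 0.19 (adjusted p = 0.000165) in YFP+ cells, and differed by -0.26 between the fractions (adjusted p = 0.346), a value near 0 under centring and 0.07 with quantile normalization. Ggnbp1 on the opposite strand overlaps up to 437 bp (18.2%) of its exons, so some of these reads may belong to that gene.

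Levels of different genes are ranked here as CPM per kb of annotated exon. The exons span 0.863 kb for Bcl2a1d and 9.157 kb for Bcl2, so these orders and the shares below depend on the division by length. Without it, Bcl2 (159 CPM) stood above Bax (72.5 CPM) in unstimulated cells. Per kb, Bax was highest in unstimulated cells, at 46.0 ± 4.61 CPM per kb (SD, n = 4). Mcl1 (22.4), Bcl2a1d (21.5) and Bcl2 (17.4) followed with overlapping libraries, then Bcl2l1 (7.81), Bbc3 (6.55), Bcl2l11 (5.72), Bak1 (4.59) and Bcl2a1b (4.10), neighbours of which also overlapped. Pmaip1 was last at 0.125 CPM per kb.

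After stimulation Bcl2a1d stood first by a wide margin on this scale, at 279 ± 46.9 CPM per kb in YFP- and 347 ± 12.9 in YFP+ libraries. Not divided by length, Bcl2a1d and Bcl2l1 averaged 241 and 238 CPM in YFP- and 300 and 158 CPM in YFP+ libraries. In YFP- cells Bax (63.0), Bcl2l1 (51.8) and Bcl2a1b (38.2) came next, and then Mcl1 (24.4), Bcl2l11 (21.7) and Bcl2 (18.8), each overlapping its neighbour except Bcl2a1b and Mcl1. In YFP+ cells the order was Bax (55.0), Bcl2a1b (43.6), Bcl2l1 (34.4), Mcl1 (23.3), Bcl2l11 (10.5) and Bcl2 (10.1), with overlaps between all neighbours but Mcl1 and Bcl2l11. Bbc3 and Bak1 closed both orders above Pmaip1.

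Within the summed anti-apoptotic RNA per kb, the composition changed. Mcl1 made up 30.7 ± 4.51% (SD, n = 4), Bcl2a1d 29.4 ± 3.09% and Bcl2 23.6 ± 3.2% in unstimulated cells. Bcl2a1d took 67.7 ± 2.20% in YFP- and 75.7 ± 3.07% in YFP+ cells, where Mcl1 held 6.01 ± 0.851% and 5.08 ± 1.24%, and Bcl2 4.45 ± 0.934% and 2.19 ± 0.563%. Within the pro-apoptotic sum Bax stayed the main part, at 72.9 ± 2.47%, 66.8 ± 1.38% and 75.5 ± 2.33%. Bcl2l11 took 9.16 ± 1.56%, 22.9 ± 0.827% and 14.6 ± 2.73% of it.

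The log2 ratio of summed anti-apoptotic to summed pro-apoptotic levels per kb was 0.33, 0.20, 0.19 and 0.14 in unstimulated libraries, 2.07, 1.84, 2.14 and 2.44 in YFP- and 2.84, 2.54, 2.69 and 2.58 in YFP+ libraries. The groups did not overlap, with unstimulated libraries lowest and YFP+ libraries highest. Group means were 0.22 ± 0.08, 2.12 ± 0.25 and 2.66 ± 0.13 (SD, n = 4), or ratios of 1.16, 4.35 and 6.33. The sums weigh RNA alone, not protein or activity, and no test was made of them. Most of the ratio in stimulated cells came from 1 gene: without Bcl2a1d the means were -0.29, 0.49 and 0.61.

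**Figure D3:**
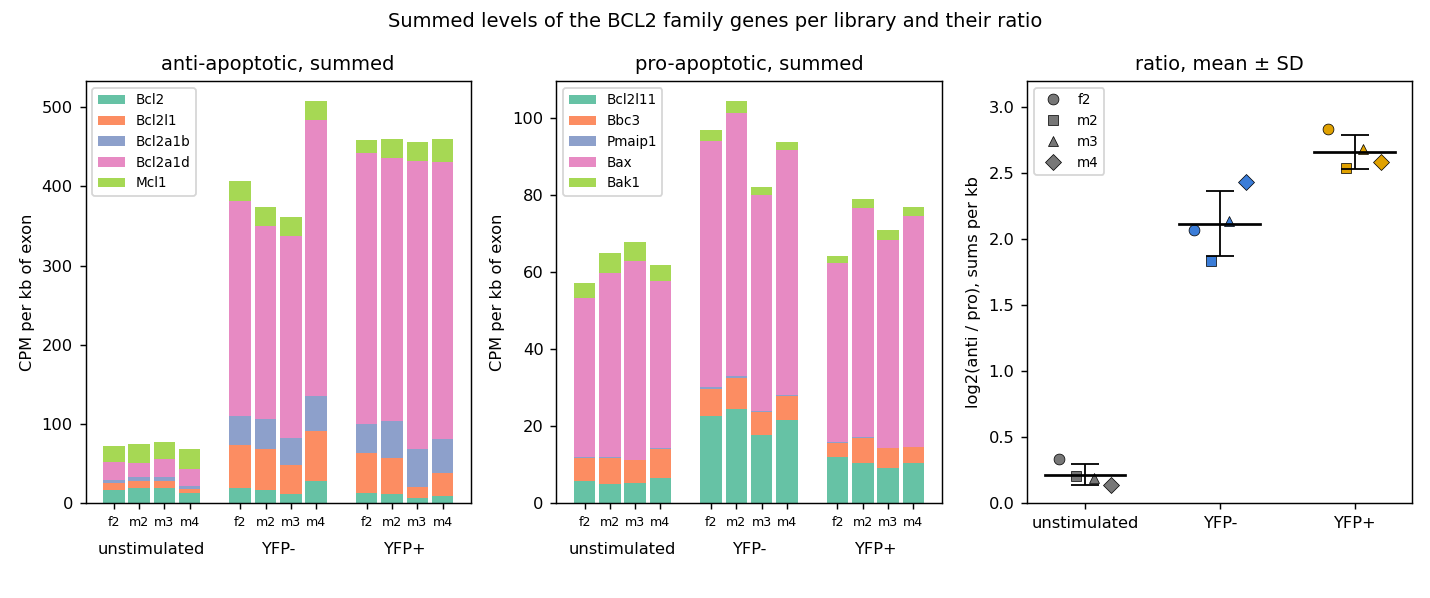
Summed CPM per kb of the anti-apoptotic genes (left) and of the pro-apoptotic genes (middle, with a smaller y axis) in each library, split by gene, and the log2 ratio of both sums per library (right) with the group mean ± SD. Bcl2a1d fills most of the left bars after stimulation, and the ratio stands near 0.22, 2.12 and 2.66 in the 3 groups.

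The genes whose centred log2 levels over the 12 libraries lay closest to those of the 4 most changed members were found among 8121 candidates by the root mean square of the difference. For Bcl2a1d they were Gpt2 (0.29), Chac1 (0.31) and Bcl2a1a (0.31), beside a spread of 1.83 of Bcl2a1d itself. For Bcl2a1b they were Stat5a (0.23), Hivep3 (0.23) and Pdgfa (0.23), for Bcl2l1 Atad3a (0.22), Yars (0.23) and Pwp1 (0.24), and for Bcl2l11 Zfp36l1 (0.19), Tnfsf10 (0.24) and Tgif1 (0.24). The spreads of these 3 members were 1.58, 1.26 and 0.80. These are likenesses of level only.

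Promoter windows from RefSeq (GRCm38.p6; 250 bases before to 50 after a start site) were available for 9 of the 10 genes. They were searched on both strands for 4 short motifs, chosen after the values were seen: kappaB (GGGNNTTCC), STAT (TTCNNNGAA), FOXO (GTAAACA) and AP-1 (TGANTCA). Of all 32851 windows, 5.82% held kappaB, 8.30% STAT, 3.65% FOXO and 7.81% AP-1. The windows of the most changed genes are shown around the match, in capitals, because they are the stretches in which the risen genes can be compared. Both A1 copies held the same AP-1 letters, Bcl2a1b at -164 and Bcl2a1d at -114 from the RefSeq start site, which differs from the GENCODE gene start. Their windows are 96.48% identical over 256 aligned positions (3 mismatches and 6 gapped positions). Bcl2l11 held FOXO letters at -227 and one Bcl2l1 window held kappaB letters, on the reverse strand, at -122. The stretches are chr9:89199039-89199155 (plus strand, Bcl2a1b), chr9:88731918-88732034 (minus, Bcl2a1d), chr2:128125788-128125887 (plus, Bcl2l11) and chr2:152830820-152830849 (minus, Bcl2l1). All 30 bases of the Bcl2l1 stretch lie in annotated GENCODE exons, before an internal start site of the gene. The Bcl2a1d stretch lies outside the Bcl2a1d gene as annotated in GENCODE M21. Of its 117 bases 37 lie in annotated exons, which thus belong to another gene, and in the other 2 stretches 0:
Bcl2a1b: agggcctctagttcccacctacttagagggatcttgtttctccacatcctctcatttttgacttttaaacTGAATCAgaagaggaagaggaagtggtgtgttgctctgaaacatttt
Bcl2a1d: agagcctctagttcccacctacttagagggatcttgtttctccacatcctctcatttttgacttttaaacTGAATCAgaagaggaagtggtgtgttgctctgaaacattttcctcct
Bcl2l11: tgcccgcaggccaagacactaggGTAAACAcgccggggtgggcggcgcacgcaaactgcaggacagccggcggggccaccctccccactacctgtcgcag
Bcl2l1: agattcacttGGAAGTCCCtttagggtttc

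Bbc3 windows held 1 kappaB and 1 FOXO match. No STAT letters were found in the windows of the 9 genes, and none of the 4 motifs in those of Bcl2, Mcl1, Bax and Bak1. A match describes letters in a window and shows no binding, and a window without a match may hold sites with other letters.

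Among the other family genes more fell than rose. Of 16 further BCL2 family genes listed, 10 passed the filter. In YFP- cells 1 rose and 4 fell, in YFP+ cells 1 rose and 6 fell, and between the fractions 0 rose and 4 fell. Of all genes tested, 51.1%, 60.8% and 21.8% were called. By direction these were 30.2% higher and 20.9% lower, then 27.5% and 33.3%, then 3.28% and 18.5%, a lean that depended on the scaling. The gene that rose was Bcl2a1a. The mitophagy receptor gene Bnip3 fell from a mean of 152 CPM to 11.5 and 4.76 CPM, a log2 difference of -3.73 and -5.01, and its relative Bnip3l from 294 to 79.1 and 29.1 CPM (-1.90 and -3.35). The BH3-only gene Bad fell by 0.67 and 1.25 and Bcl2l12 by 0.59 and 1.0. Bmf, another BH3-only gene, did not pass the test in YFP- cells (0.57, limma adjusted p = 0.218) but fell in YFP+ cells, with a log2 difference of -1.73 against unstimulated and -2.30 against YFP- cells, from low levels of 1.61 CPM in unstimulated and 2.52 CPM in YFP- libraries. Bik fell by 1.15 in YFP+ cells. Bid, which links death receptors to mitochondria, Bcl2l2 and Bcl2l13 passed in no comparison, and Bcl2a1c, Bcl2l10, Bcl2l14, Bcl2l15, Bok and Hrk did not pass the filter.

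Downstream of the pores, 22 genes of the apoptosome and caspase pathway were tested: 6 rose and 7 fell in YFP- cells, 5 rose and 11 fell in YFP+ cells, and 1 rose and 7 fell between the fractions. Of all genes tested, 51.1%, 60.8% and 21.8% were called: 30.2% higher and 20.9% lower in YFP-, 27.5% and 33.3% in YFP+, and 3.28% and 18.5% between the fractions. The list's median differences were -0.14, -0.52 and -0.44. With totals without rRNA-like features the list gave 3 higher and 9 lower in YFP- and 3 and 12 in YFP+ cells. Casp9 and Apaf1, the initiator caspase and the scaffold that cytochrome c assembles, fell by 1.68 and 1.70 in YFP- and by 3.13 and 2.11 in YFP+ cells. Cycs, which encodes cytochrome c, rose by 1.37 and 1.90 and was the one gene of the list higher in YFP+ than in YFP- cells (0.54, limma adjusted p = 0.0157), singled out after its values were seen. Birc5, which encodes survivin, fell by 1.69 and 3.5, and was lower in YFP+ than in YFP- cells by a log2 difference of -1.80. The executioner caspase gene Casp6 fell by 0.96 and 2.26. Between the fractions Casp9 differed by -1.44 and Birc3, an inhibitor of apoptosis gene, by -1.69.

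Among 15 tested genes of the p53 list, 11 rose and 1 fell in YFP- cells, 7 rose and 3 fell in YFP+ cells, and 0 rose and 7 fell between the fractions. The upward share in YFP- cells stands beside 30.2% of all genes and that in YFP+ cells beside 27.5%, and the downward share between the fractions beside 18.5%. Fas, a death receptor gene, rose by 3.70 in YFP- and 1.84 in YFP+ cells, a difference of -1.86 between them. Perp, a membrane protein gene, rose by 3.06 in YFP- and 3.70 in YFP+ cells. Aen, an apoptosis-associated nuclease gene, rose by 2.42 and 2.41. Trp53inp1 fell by 0.98 and 3.61, and its difference between the fractions was -2.63. Phlda3 rose by 1.38 in YFP- and fell by 1.62 in YFP+ cells, with a difference of -3.01 between them. Bbc3, also a p53 target, did not rise past the test in any comparison. The FOXO and stress list held 10 tested genes, of which 5 rose and 2 fell, 5 rose and 5 fell, and 0 rose and 4 fell, beside 51.1%, 60.8% and 21.8% of all genes called. The last count became 1 higher and 4 lower with trimmed-mean scaling, 1 and 3 with centring and 1 and 2 with quantile normalization. Foxo3, a known activator of Bcl2l11, fell by 1.61 and 2.43, and its part in the Bcl2l11 change was not tested. Trib3, a stress-response gene, rose by 2.25 and 2.69, the transcription factor gene Myc by 2.28 and 1.51, and the repressor gene Bcl6 by 2.15 and 1.55. The cell cycle regulator gene E2f1 fell by 1.88 and 2.55. Between the fractions Foxo4 differed by -1.38, Jun by -1.14 and Foxo3 by -0.82.

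Among the 8 genes of NF-kappaB subunits and inhibitors, 7 rose and 0 fell in YFP- cells, 6 rose and 0 fell in YFP+ cells, and 0 rose and 3 fell between the fractions, with median differences of 2.66, 1.84 and -0.68. Of all genes 30.2% rose in YFP- and 27.5% in YFP+ cells, and 18.5% were lower in YFP+ than in YFP- cells. Relb rose by 2.92 and 2.0, and Nfkbia, the gene of the inhibitor IkappaB alpha, by 2.79 and 1.94. The subunit genes Nfkb2 and Rel rose by 2.78 and 2.71 in YFP- and by 2.27 and 2.52 in YFP+ cells. Between the fractions the inhibitor gene Nfkbie differed by -1.98, Relb by -0.92 and Nfkbia by -0.85. The IL-15 receptor and STAT5 list held 15 tested genes, of which 6 rose and 5 fell, 5 rose and 5 fell, and 0 rose and 6 fell, beside 51.1%, 60.8% and 21.8% of all genes called. The last count became 2 higher and 4 lower with trimmed-mean scaling and 3 and 3 with centring. Stat5a rose by 3.02 and 3.27 and Cish, a STAT5-induced inhibitor gene, by 2.20 and 2.19, while the kinase gene Pim2 fell by 1.05 and 2.69. Jak3, the kinase gene of the receptor's common gamma chain, fell by 1.58 and 2.50. Between the fractions Pim2 differed by -1.64, Jak3 by -0.92 and Socs1, a signalling inhibitor gene, by -0.68.

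The list on turnover of the MCL1 protein had 8 tested genes, of which 3 rose and 1 fell in YFP- cells, 3 rose and 2 fell in YFP+ cells, and 0 rose and 0 fell between the fractions, beside 51.1%, 60.8% and 21.8% of all genes called. The ubiquitin-conjugating enzyme gene Ube2f rose by 1.76 and 2.11, and Cul5, a ubiquitin ligase scaffold gene, by 0.86 and 1.08. Ube2t, which fell by 1.33 and 1.71, is best known for DNA crosslink repair. Between the fractions 3 of the 8 had an unadjusted p under 0.05 in limma, and 2 were called higher with trimmed-mean scaling and 3 with centring or voom weights. Mcl1 RNA itself passed in none of the 3 comparisons.

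**Figure D4:**
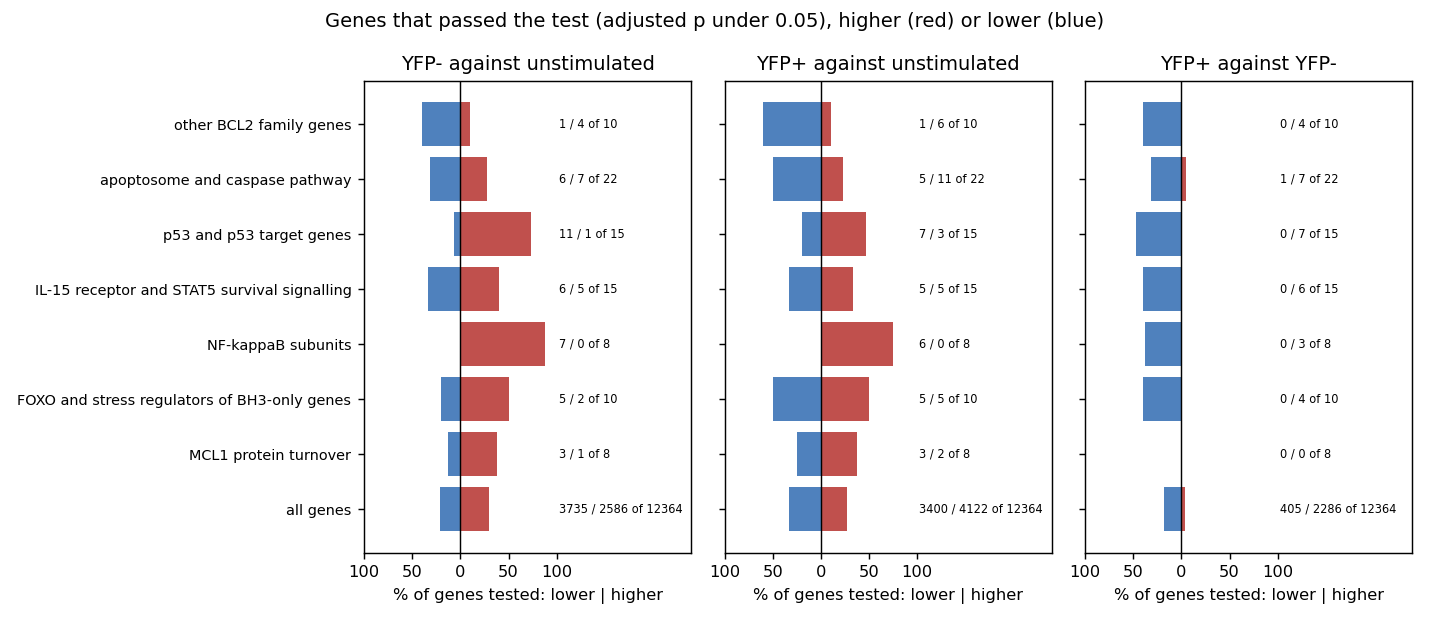
Share of tested genes (x axis, %) that passed an adjusted p of 0.05 upward (red, right) and downward (blue, left) in each gene list and over all genes, with counts of higher and lower genes printed beside the bars. NF-kappaB genes have no downward bar in the comparisons with unstimulated cells, and between the fractions the bars of all lists but MCL1 protein turnover lie mainly to the lower side, as does that of all genes.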

How the data were processed

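RNA of 12 NK cell samples was read as paired ends after SMARTer Ultra Low amplification, per the labels' protocols. The submitters' processing notes name STAR 2.7.9a, featureCounts 2.0.3, Subread, bcl2fastq and the build GRCm38. Annotation, strand and multi-mapping settings are not given in the sources used here. Per the file headers, the values the authors deposited are moderated log2 CPM per gene, in 1 table with 55774 lines. After 287 repeats of a gene were dropped, 55487 features were left. All values (100%, within 0.1 reads) gave back whole reads with a prior of 0.5 reads scaled to the library total. No chi-square per degree of freedom between replicates was under 16.03, so none counted as duplicates. Floors of 3 reads cover counting error only.

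The 12364 genes that exceeded a log2 CPM of 0 in 4 or more libraries were fitted over all 12 libraries in limma 3.58.1 (R 4.3.3) with an intensity trend, Benjamini-Hochberg adjustment over all genes and a threshold of 0.05. The design had 1 coefficient per group and no block. Fold changes are on the moderated log2 scale and understate low genes. On simulated reads the fit recovered most of a small, balanced set of changes planted in 1 group. That setting lacked the broad shifts between groups of these data, so it does not test the fit under them. Lengths and positions come from GENCODE M21 (99.5% of identifiers matched), levels per kb from the union of exons, and promoter windows from RefSeq. Exact permutation tests were 2-sided over 70 regroupings. Other steps used Python 3.11.15, pandas 2.3.3, numpy 2.4.6, scipy 1.17.1 and matplotlib 3.10.9.

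The 10 members were named, as were all tested genes of the other-family list, the up to 3 most changed called genes of each other list per comparison, genes most like the 4 most changed members, and fixed markers. Members, lists and trimmed-mean scaling were chosen with earlier results of these data known. Alternatives were the replicate block, fitting only the 8 libraries compared, dropping the filter or raising it to a log2 CPM of 2, adding 1 CPM before the log, trimmed-mean, quantile and median scaling, totals without rRNA-like features, voom weights, a threshold of 0.01 on the adjusted p, and leaving out each label. Leaving out single libraries and summing the Bcl2a1 copies were added after seeing the data. Same-label libraries did not all deviate together, and labels were not taken as pairs.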

Additional observations from a re-analysis of the deposited data

Results flagged for a closer look

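In 36 sets of 4 values (the 10 genes, the ratio and the library totals in each of the 3 groups), a lone extreme library was looked for by its gap to the nearest neighbour as a part of the whole range, against Dixon's limit for 4 values. Chance flags about 1 in 20 such sets, or 1.8 of 36, and 2 were found. Bcl2l1 in unstimulated cells had m4 at 4.63 log2 CPM, apart from 5.26, 5.28 and 5.38, a gap of 0.841 of the range. Pmaip1 in unstimulated cells had m3 at -2.86, apart from -1.39, -1.21 and -1.12, a gap of 0.847 of the range, which rests on 5 reads.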

How the results depend on the processing

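The number of BCL2 family genes called in YFP+ against YFP- libraries, 2 as reported, was 1 with the 8 libraries compared, 4 with voom weights, 1 at an adjusted p under 0.01, and 1 to 3 when a label or a library was left out. In the comparisons with unstimulated cells leaving out gave 5 to 6 for YFP- and 6 to 7 for YFP+. With a replicate block the counts were 6, 7 and 2, as without it, and 63, 66 and 36 listed pathway genes were called in place of 59, 64 and 32. Same-label correlations of deviations ran from -0.059 to 0.375 over the 3 pairs of groups, so the block was not the main fit. Between YFP- and YFP+ libraries all were positive (0.054, 0.350, 0.374 and 0.172 for f2, m2, m3 and m4). The 2 fractions of a label may thus be paired, which the main fit ignores. The log2 ratio of anti-apoptotic to pro-apoptotic sums depended on its members. In unstimulated cells (0.22) it turned negative without Bcl2 (-0.17), Bcl2a1d (-0.29) or Mcl1 (-0.31), and was 0.055 without Bcl2l1, 0.13 without Bcl2a1b, 0.36 without Bcl2l11, 0.38 without Bbc3, 0.33 without Bak1, 2.11 without Bax and 1.02 without division by length. In YFP- cells (2.12) it was 0.49 without Bcl2a1d, 2.50 without Bcl2l11, 3.71 without Bax and 1.36 without length. In YFP+ cells (2.66) it was 2.52 without Bcl2a1b, 0.61 without Bcl2a1d, 2.89 without Bcl2l11, 4.70 without Bax and 1.83 without length. Of 744 values of single genes over 27 settings, 696 kept the call or its absence, 37 lost the call and 11 gained one. No called value changed sign, but an uncalled value whose sign turned, such as Mcl1 between the fractions, counts as kept. Of 30 gene results, 20 kept the call or its absence under every setting run. Depth limits Pmaip1 most, at 5 to 64 reads. Causes of these changes were not tested.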
